A study of Homo sapiens with 14 samples.

Results

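Pooled guide libraries from 3D cardiomyocyte differentiations at day 25 were compared with the undifferentiated pool at day 0 in a CRISPR/Cas9 knockout screen of human transcription factors. The comparison takes 8 of the 14 samples of the study: 2 day 0 libraries and the TNNT2- and TNNT2+ fractions of 3 differentiations grown as 3D cultures. For each culture the deposited values of its 2 fractions were averaged, so that 3 cultures stand against 2 day 0 libraries. The deposited scales differ between libraries, so the fractions weigh unequally in this mean: TNNT2+ made up 52.2%, 42.7% and 69.5% of cultures 1, 2 and 3. Each fraction was also set against day 0 by itself, and the cultures against each day 0 library by itself. Guides were assigned to genes by the target name deposited with them. The comparison asks which knockouts became more or less frequent in the pool between the start of differentiation and day 25.

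The cells were H9, an established line of human embryonic stem cells, carrying a doxycycline-inducible Cas9 and a pooled guide library against transcription factors. Day 0 cells were maintained in mTESR1, a defined medium for pluripotent stem cells. Day 25 cells were sorted on TNNT2, cardiac troponin T, a component of the contractile apparatus of heart muscle cells. All 8 libraries share the line, the Cas9 system and the guide pool, and their genotype is labelled WT, so there is no library without guides and the internal reference is the set of non-targeting control guides. The time of Cas9 induction relative to day 0 is not given in the sources used here, so day 0 is treated only as the labelled start. The 3 differentiations are labelled as biological replicates. Nothing used here says that the 2 day 0 libraries came from separate cultures, so the spread between them may be technical. The screen used 1 cell line. Guides were read from genomic DNA, which carries no measure of expression, so the TNNT2 labels of the fractions could not be checked against marker genes.

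In a pooled knockout screen each cell keeps a guide in its genome, and the guide serves as a tag for the progeny of that cell. A guide whose target limits growth or survival becomes more frequent as the culture expands, and a guide against a gene that cells need becomes rarer. During cardiac differentiation, pluripotent cells pass through a mesendoderm state marked by factors such as T (brachyury), EOMES and MIXL1, then through cardiac mesoderm marked by MESP1, and on to progenitors and muscle cells that depend on NKX2-5, GATA4, TBX5, HAND1, ISL1 and MEF2C. Knockouts that block these steps would be expected to shift between sorted fractions, whereas a comparison of the whole culture with day 0 reads growth, survival and differentiation together.

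The library held 11364 guides, of which 100 were controls and the others had 1633 target names. There were 7 guides for 1574 of the targets. An even pool would give each guide 88.0 CPM (the guide's reads scaled to a common library total) and a gene with 7 guides 616 CPM in sum. The libraries held between 23691473 and 31671019 reads. Because the reads are PCR products without molecular identifiers, counting intervals cover counting error only. Across the named genes the Wilson 95% interval of a summed share had a median width of 1.54% of the value on either side. The largest was 42.7%, for DMRT3 in TNNT2+ replicate 3, where its guides had 22 reads in sum.

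The libraries differed in how many guides they held at more than a trace, within day 0 as well as within day 25. In day 0 replicate 1, 152 guides (1.34%) had under 50 reads, and in day 0 replicate 2 there were 4306 (37.9%). In the TNNT2- fractions of cultures 1, 2 and 3 the counts were 109 (0.959%), 1759 (15.5%) and 3755 (33.0%). In the TNNT2+ fractions they were 310 (2.73%), 297 (2.61%) and 5175 (45.5%). Day 0 replicate 2, TNNT2- replicates 2 and 3 and TNNT2+ replicate 3 therefore stood apart as thin libraries, although their read totals were like those of the others. In day 0 replicate 2, 3692 of the sparse guides had under 10 reads, and only 135 guides lay between 50 and 200 reads, apart from the bulk above. The limit of 50 reads was set after these distributions had been seen.

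**Figure D1:**
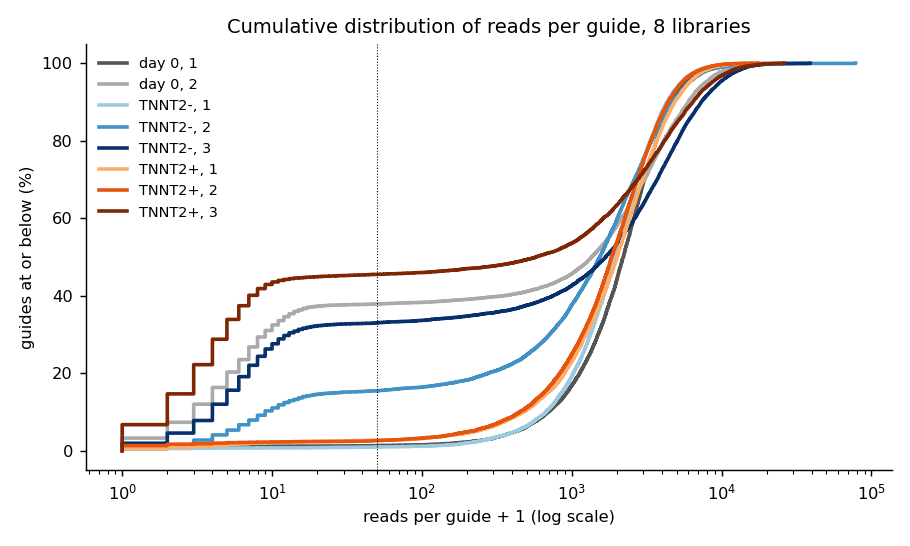
Cumulative share of guides (percent) against reads per guide plus 1 (log scale), with 1 line for each of the 8 libraries and a dotted line at 50 reads. Day 0 replicate 2 (37.9% of guides under 50 reads), TNNT2- replicate 3 (33.0%) and TNNT2+ replicate 3 (45.5%) show a plateau of guides with few reads, TNNT2- replicate 2 a lower one (15.5%), and the other 4 libraries none.

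Few guides were sparse throughout. Of the 4306 guides under 50 reads in day 0 replicate 2, 4199 had 50 or more in day 0 replicate 1 and 4277 (99.3%) had 50 or more in at least 1 day 25 library, a level that all but 30 of the 11364 guides reached. At 50 or more in all 6 day 25 libraries were 1184 (27.5%). Of those 30 guides, 0 had 50 or more in both day 0 libraries. No guide that both day 0 libraries held at that level was thus absent from the whole set of day 25 libraries. Sparse guides were more common among those that started low: among the 2841 guides with the fewest reads in day 0 replicate 1, 54.0% were under 50 reads in day 0 replicate 2 and 62.3% in TNNT2+ replicate 3, against 21.1% and 29.0% among the 2841 with the most. Control guides, which have no target in the screened set, were sparse in the same libraries: 24 of 100 were under 50 reads in day 0 replicate 2 (37.9% of all guides), 23 in TNNT2- replicate 3 (33.0% of all) and 45 in TNNT2+ replicate 3 (45.5% of all), against 1, 0, 5, 1 and 1 in day 0 replicate 1, TNNT2- replicates 1 and 2 and TNNT2+ replicates 1 and 2.

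The evenness of the pool did not separate day 25 from day 0. The Gini index of guide values, which is 0 for an even pool and nears 1 when few guides hold all reads, was 0.352, 0.415 and 0.578 in the 3 cultures (0.449 ± 0.117, SD, n = 3). In the 2 day 0 libraries it was 0.356 and 0.626 (0.491 ± 0.191, SD, n = 2). A culture value comes from the mean of 2 libraries and a day 0 value from a single library, so the 2 sides are unlike measures. Taken singly, the TNNT2- libraries had 0.367, 0.525 and 0.619, and the TNNT2+ libraries 0.410, 0.403 and 0.691. The cultures lay between and around the day 0 values, and the difference of -0.0426 gave p = 0.8 in a 2-sided exact permutation test, for which 0.1 is the smallest p that 3 against 2 samples allow. Within a culture, the rank correlation of guide CPM between the TNNT2- and TNNT2+ fractions was 0.58, 0.45 and 0.26 for cultures 1, 2 and 3. Between TNNT2- and TNNT2+ fractions of different cultures it ranged from 0.25 (TNNT2- 2 with TNNT2+ 3) to 0.52 (TNNT2- 1 with TNNT2+ 2), so the 2 ranges overlapped. Between the 2 day 0 libraries it was 0.37. Each value is across 11364 guides that share the library's base composition and starting frequencies. These are descriptions across guides, which are not independent replicates.

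Gene effects were tested in 2 steps. Each guide was fitted with limma on log2 of the deposited value plus 10, and the ranks of a gene's guides were combined by robust rank aggregation for each direction, with Benjamini-Hochberg adjustment over the 1621 genes with at least 3 guides and calls at an adjusted p under 0.05. Fold changes below are on this log2(value + 10) scale, which understates changes of rare guides. The deposited values of the thin libraries are on a larger scale. The median over all guides was 0.41 in the cultures, -0.01 in the TNNT2- fraction and 0.27 in the TNNT2+ fraction. The medians over control guides were 0.26, -0.14 and 0.09. A gene is best read against these medians. With values scaled to library totals, the all-guide median in the cultures was still 0.31, and the source of this offset was not tested. CPM values are given beside the fold changes because they do not depend on the deposited scale.

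In the cultures no gene was called in either direction (0 of 1621, percent called 0, in the limma rank aggregation). Before adjustment 73 genes had a p under 0.05 for a gain and 83 for a loss. edgeR's quasi-likelihood test on the recovered reads called 0 genes as well, and so did DESeq2. The leading genes on the gain side were FOXO1, ZNF10, CDX2 and FOXI3, all at 0.0903 after adjustment, then ARHGAP35 and MEIS3 at 0.423. On the loss side FOXK1 led with an adjusted p of 0.196. In the TNNT2- fraction 1 gene was called higher, FOXO1, and in the TNNT2+ fraction 1 gene was called higher, ZNF10 (percent called 0.0617 for each). No gene was called lower in either fraction, and the losses at an unadjusted p under 0.05 numbered 84 and 77.

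FOXO1 encodes a forkhead transcription factor that insulin and AKT signalling keep out of the nucleus, and that promotes growth arrest and stress resistance when nuclear. The gene lies on chromosome 13, from 40555667 to 40666641 (GRCh38.p14). Its 7 guides summed to 728 and 667 CPM in the 2 day 0 libraries. In the TNNT2- fractions they summed to 2132, 3702 and 1620 CPM, and in the TNNT2+ fractions to 975, 1418 and 945 CPM. All 6 day 25 libraries lay above both day 0 libraries, and the TNNT2- value was above the TNNT2+ value in each of the 3 cultures. The share of all genes with this order of the fractions is not given here. The mean of the cultures was 1799 ± 673 CPM (SD, n = 3) against 697 ± 43.7 CPM (SD, n = 2) at day 0, a ratio of 2.58. The ratio was 3.56 for the TNNT2- fractions (2485 ± 1085 CPM, SD, n = 3) and 1.60 for the TNNT2+ fractions (1113 ± 265 CPM, SD, n = 3).

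In the limma rank aggregation FOXO1 had an adjusted p of 0.000354 in the TNNT2- fraction, where its median guide log2 fold change was 0.91 ± 2.93 (SD over 7 guides) and 4 of 7 guides were above 0. In the cultures the median was 2.58 ± 2.68 with 6 of 7 guides above 0, and the adjusted p of 0.0903 missed the threshold. In the TNNT2+ fraction the median was 1.03 ± 2.62, 4 of 7 guides were above 0, and the adjusted p was 0.955. The wide SD shows that the guides did not move as a block. Against day 0 replicate 1 alone the median in the cultures was 1.38, and against the thin day 0 replicate 2 alone it was 3.53. The TNNT2- call was lost when either day 0 library or culture 2 was left out, and in edgeR and DESeq2.

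The single guides of FOXO1 show where the gain sat. FOXO1_1 had 82.4 and 25.2 CPM at day 0, then 561, 1152 and 709 CPM in the TNNT2- fractions and 272, 408 and 4.45 CPM in the TNNT2+ fractions. FOXO1_2 had 45.0 and 0.552 CPM at day 0, then 431, 511 and 286 CPM in TNNT2- and 206, 221 and 3.76 CPM in TNNT2+. FOXO1_6 had 200.2 and 0.552 CPM at day 0, then 373, 1038 and 140 CPM in TNNT2- and 140, 245 and 356 CPM in TNNT2+. The first 2 of these guides exceeded both day 0 libraries in every TNNT2- library, and both fell to a few CPM in the thin TNNT2+ replicate 3. FOXO1_5 had 138 and 239 CPM at day 0 and 299, 437 and 346 CPM in TNNT2-, while FOXO1_3 had 199 and 348 CPM at day 0 and 193, 531 and 139 CPM in TNNT2-. FOXO1_5 was therefore above both day 0 values throughout the TNNT2- fraction and FOXO1_3 overlapped them. FOXO1_4 and FOXO1_7 started at under 54 CPM and were at or below 0.204 CPM in at least 1 thin library each. With its leading guide FOXO1_1 left out, the other 6 guides still summed to 646 and 641 CPM at day 0, to between 911 and 2550 CPM in TNNT2- and to between 703 and 1010 CPM in TNNT2+, without overlap. How many of all genes stay separated in this way is not given here.

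The plot of single guides shows these values for FOXO1 beside those of NR6A1, ZNF10 and CDX2.

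**Figure D2:**
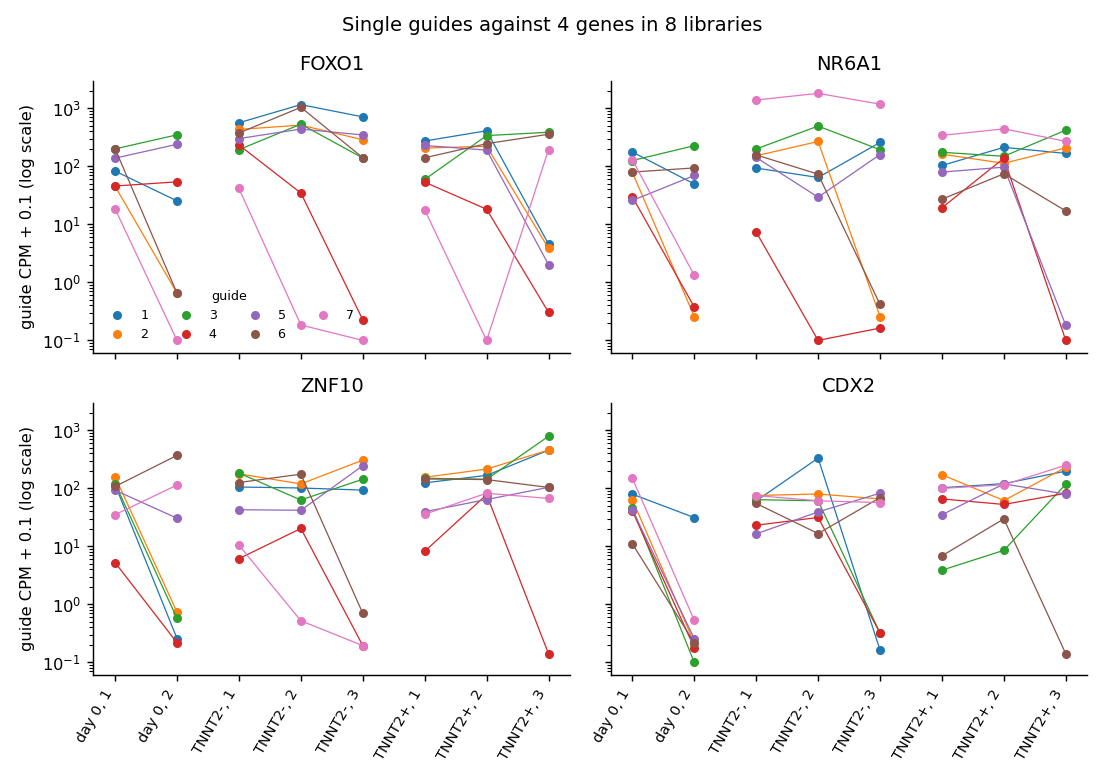
CPM plus 0.1 (log scale) of each of the 7 guides, by colour, against FOXO1, NR6A1, ZNF10 and CDX2 in the 2 day 0, 3 TNNT2- and 3 TNNT2+ libraries, with lines joining libraries of a group for legibility only. Several FOXO1 guides rise in all TNNT2- libraries, NR6A1 rises through guide 7 (129.6 and 1.22 CPM at day 0, 1175 to 1800 CPM in TNNT2-), and 6 of 7 CDX2 guides drop out in day 0 replicate 2.

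NR6A1 encodes an orphan nuclear receptor, germ cell nuclear factor, which in mouse represses Pou5f1 when embryonic stem cells differentiate. It lies on chromosome 9, from 124517275 to 124771311. Its 7 guides summed to 644 and 440 CPM at day 0, to 2134, 2725 and 1784 CPM in TNNT2- and to 903, 1221 and 1077 CPM in TNNT2+. The day 25 libraries were all above day 0, with a mean over cultures of 1641 ± 291 CPM (SD, n = 3) against 542 ± 144 CPM (SD, n = 2), a ratio of 3.03. A single guide held most of the gain. NR6A1_7 had 129.6 and 1.22 CPM at day 0, the second value being 31 reads, then 1386, 1800 and 1175 CPM in TNNT2- and 340, 441 and 269 CPM in TNNT2+. It was the only guide called in the cultures (1 of 11337, percent called 0.00882), with a limma log2 fold change of 5.97 ± 1.25 (SE) and an adjusted p of 0.0190. In TNNT2- its log2 fold change was 6.57 ± 1.02 (SE), with an adjusted p of 1.14e-06. In TNNT2+ it was 4.81 ± 1.81 (SE) and was not called, with an adjusted p of 0.9998 in limma. Against day 0 replicate 1 alone the log2 fold change of this guide in the cultures was 3.44, and against the thin day 0 replicate 2 alone it was larger. The size of the gain thus depended on the 31 reads in day 0 replicate 2.

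Without guide 7, the other 6 guides of NR6A1 summed to 514 and 438 CPM at day 0, to 748, 925 and 609 CPM in TNNT2- and to 563, 780 and 808 CPM in TNNT2+. These sums still lay above both day 0 libraries in all 6 day 25 libraries, by a smaller margin. The share of all genes that stay separated without their leading guide is not given here. NR6A1 was named with these same libraries seen, so its separation gives no independent support. NR6A1_3, the most frequent of these guides, had 125 and 226 CPM at day 0 and between 149 and 492 CPM at day 25, and overlapped. As a gene, NR6A1 had a median guide log2 fold change of 0.79 ± 2.53 in the cultures (SD over 7 guides, 6 of 7 above 0) and an adjusted p of 0.812 in the limma rank aggregation.

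The other guide called in TNNT2- (2 of 11324, percent called 0.0177) was TCF4_1, against a bHLH E protein that pairs with tissue-specific bHLH factors. It had 281 and 1.65 CPM at day 0, 489, 728 and 1051 CPM in TNNT2- and 428, 270 and 457 CPM in TNNT2+. Its log2 fold change in TNNT2- was 4.85 ± 1.08 (SE), with an adjusted p of 0.0408 in limma. The second day 0 value, of 42 reads, was far below all the others, and TNNT2+ replicate 2 was below day 0 replicate 1. The remaining 6 guides of TCF4 summed to 310 and 547 CPM at day 0 and to between 167 and 366 CPM at day 25, so they did not rise with it.

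Another guide grew large in a single culture. SKI_5, against a co-repressor of TGF-beta signalling, had 61.2 and 0.788 CPM at day 0 and 1234 and 682 CPM in the 2 fractions of culture 3, and between 28.0 and 102 CPM in the 4 libraries of cultures 1 and 2. It held the largest share of culture 3, and its adjusted p in the cultures was 0.936 in limma. HSFY2_2, by contrast, was the most frequent guide in both day 0 libraries (565 and 1051 CPM) and stayed between 336 and 879 CPM in all 6 day 25 libraries.

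ARHGAP35 encodes a GTPase-activating protein that acts on the actin cytoskeleton, and it lies on chromosome 19, from 46860997 to 47005077. Its guides summed to 608 and 500 CPM at day 0, to 2121, 1943 and 892 CPM in TNNT2- and to 838, 726 and 933 CPM in TNNT2+. All day 25 libraries were above day 0. The mean was 1242 ± 295 CPM over cultures (SD, n = 3) against 554 ± 76.4 CPM at day 0 (SD, n = 2), a ratio of 2.24. The median guide log2 fold change was 2.55 ± 2.21 in the cultures (6 of 7 guides above 0) and 2.62 ± 2.12 in TNNT2-, with adjusted p-values of 0.423 and 0.123 in the limma rank aggregation. Its guides ARHGAP35_1 and ARHGAP35_5 were each at least 2-fold above both day 0 libraries in all TNNT2- libraries. Without its leading guide ARHGAP35_4, the other 6 guides summed to 457 and 499.7 CPM at day 0 and to between 442 and 1601 CPM at day 25, with overlap in TNNT2+ replicate 3. In the TNNT2- fraction the call was made when culture 3 was left out, with an adjusted p of 0.0273.

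FOXR2, SOX12 and ZNF292 also lay above day 0 in all 6 day 25 libraries. FOXR2, a forkhead factor on the X chromosome, summed to 442 and 388 CPM at day 0, to 978, 2075 and 812 CPM in TNNT2- and to 558, 965 and 942 CPM in TNNT2+. SOX12, a member of the SOXC group that includes SOX4 and SOX11, summed to 424 and 311 CPM at day 0, to 925, 1585 and 847 CPM in TNNT2- and to 712, 1016 and 1154 CPM in TNNT2+. ZNF292, a large zinc finger protein, summed to 459 and 186 CPM at day 0, to 684, 934 and 969 CPM in TNNT2- and to 878, 595 and 701 CPM in TNNT2+. SOX12 had the widest gap of all genes, its lowest day 25 library being 1.68 times its highest day 0 library. The ratio of culture mean to day 0 mean was 2.54 for FOXR2, 2.83 for SOX12 and 2.46 for ZNF292, and each adjusted p in the cultures was 0.973. FOXR2 owed part of its gain to FOXR2_5 (27.1 and 0.394 CPM at day 0, 1453 CPM in TNNT2- replicate 2). Its other 6 guides summed to between 461 and 747 CPM at day 25 against 415 and 388 CPM. The share of all genes with such a remainder above day 0 is not given here.

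The number of genes with such a separation was small in both directions. In summed CPM, 49 of 1621 genes (percent called 3.02) were above both day 0 libraries in all 6 day 25 libraries, and 54 (percent called 3.33) were below. Over the 3 cultures, each the mean of its fractions, the counts were 178 above (percent called 11) and 180 below (percent called 11.1). In TNNT2- 148 genes were above (percent called 9.13) and 180 below (percent called 11.1), and in TNNT2+ 157 were above (percent called 9.69) and 163 below (percent called 10.1). Separation of the groups was therefore as frequent for losses as for gains. Whether these counts exceed those of random labels was not tested, so separation alone does not mark a gene as changed. FOXO1, NR6A1, ARHGAP35 and FOXR2, 4 of the 12 leading gains, belonged to the 49. The leading gains were ranked on these same libraries, so this overlap gives no independent support. At the level of guides, 34 of 11364 were at least 2-fold above both day 0 libraries in all 6 day 25 libraries (percent called 0.299) and 24 at least 2-fold below (percent called 0.211), with 0 of 100 controls in either set. In TNNT2- there were 181 up (percent called 1.59) and 159 down (percent called 1.4), and in TNNT2+ 150 up (percent called 1.32) and 175 down (percent called 1.54), with 1 control among them, up in TNNT2+. Genes with 2 such guides numbered 12 in TNNT2-, among them FOXO1, ARHGAP35, SOX12 and GATA4, and 5 in TNNT2+, which were FOXR2, TET1, USF1, ZKSCAN1 and ZNF182.

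**Figure D3:**
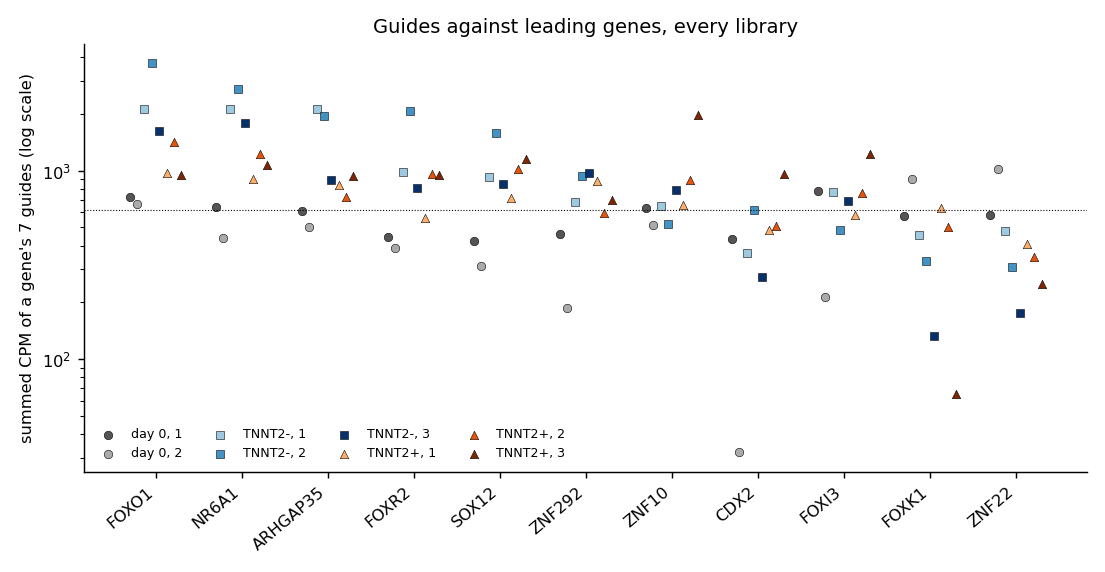
Summed CPM (log scale) of the 7 guides of 11 genes in each library, with circles for day 0, squares for TNNT2- and triangles for TNNT2+, and a dotted line at the 616 CPM of an even pool. FOXO1, NR6A1, ARHGAP35, FOXR2, SOX12 and ZNF292 lie above both day 0 libraries in all 6 day 25 libraries and ZNF22 below, while ZNF10, CDX2, FOXI3 and FOXK1 overlap.

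ZNF10, called in TNNT2+, encodes a KRAB zinc finger repressor (KOX1) whose KRAB domain is widely used for gene silencing. It lies on chromosome 12, from 133130627 to 133159465. Its guides summed to 633 and 514 CPM at day 0, to 650, 520 and 787 CPM in TNNT2- and to 655, 888 and 1970 CPM in TNNT2+. The TNNT2+ libraries were above day 0, the first by a narrow margin, and the TNNT2- libraries overlapped it. The median guide log2 fold change in TNNT2+ was 1.87 ± 2.40 (SD over 7 guides, 6 of 7 above 0), with an adjusted p of 0.00634 in the limma rank aggregation. Much of it came from TNNT2+ replicate 3 and day 0 replicate 2. ZNF10_1 had 115 and 0.158 CPM at day 0 and 124, 167 and 453 CPM in TNNT2+, and ZNF10_3 had 120 and 0.473 CPM at day 0 and 149, 143 and 788 CPM in TNNT2+. ZNF10_2 followed the same course, from 158 and 0.630 CPM to 154, 214 and 455 CPM. In cultures 1 and 2 these guides were near their day 0 replicate 1 values, and both the near-absent and the highest values were in thin libraries. The call was lost without day 0 replicate 2 and without culture 3. The difference between the fractions, with all 7 guides lower in TNNT2-, had an adjusted p of 0.809 in a limma rank aggregation without pairing by culture.

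CDX2 and FOXI3 led the cultures through day 0 replicate 2. CDX2, a caudal homeobox factor of trophectoderm and posterior mesoderm, summed to 432 and 32.1 CPM at day 0, to 368, 619 and 274 CPM in TNNT2- and to 483, 505 and 955 CPM in TNNT2+. Its day 25 values lay on both sides of day 0 replicate 1 and far above day 0 replicate 2, where 6 of its 7 guides were under 50 reads. All 7 guides were above 0 in the cultures, where their median was 3.61 ± 0.88 on the log2 scale (adjusted p 0.0903, limma rank aggregation). Against day 0 replicate 1 alone the median was 1.10, and against replicate 2 alone 6.24. FOXI3, a forkhead factor of ectodermal appendages, summed to 784 and 213 CPM at day 0 and to between 485 and 1221 CPM at day 25, with medians of 0.65 and 6.69 against the 2 day 0 libraries. With the 4 thin libraries left out, its median was -0.34 and that of CDX2 0.42.

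The leading genes held sparse guides as follows. Of the 84 guides of the 12 leading gains, 52 (61.9%) were under 50 reads in day 0 replicate 2, against 38.0% of the guides of all genes tested. Of the 84 guides of the 12 leading losses, 24 (28.6%) were under 50 reads there, while 47 (56.0%) were under 50 reads in TNNT2- replicate 3 and also 47 in TNNT2+ replicate 3, against 33.2% and 45.6% of all. The leading genes were ranked on these same libraries, so a guide near 0 in day 0 replicate 2 ranks as a gain and a guide near 0 in culture 3 as a loss, and these shares describe the ranking and support nothing else. The part of this sparseness in the gene ranks was not tested beyond leaving libraries out.

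**Figure D4:**
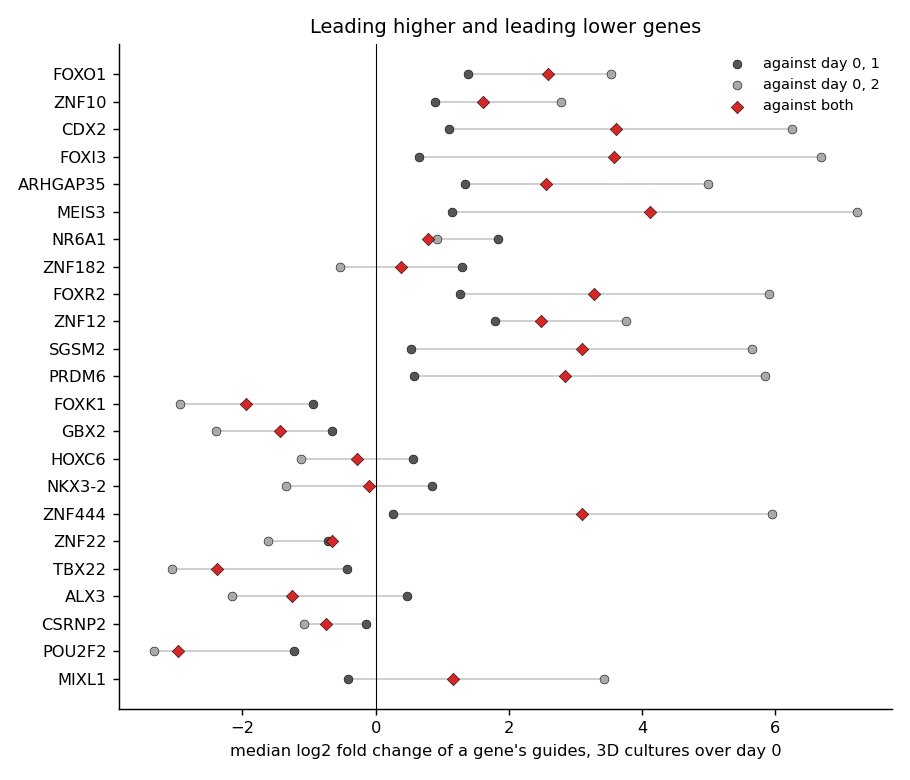
Median log2 fold change over a gene's guides, 3D cultures over day 0, for the 12 leading higher genes (top) and 11 of the 12 leading lower genes, against day 0 replicate 1 alone (dark circles), replicate 2 alone (light circles) and both (red diamonds). For most genes the distance from 0 is larger against replicate 2, as for CDX2 (1.10 against 6.24), and ZNF444 and MIXL1 have medians above 0 although a few of their guides ranked them among the losses.

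Against day 0 replicate 1 alone, which held guides evenly, 0 genes and 0 guides were called by limma, with 94 genes at an unadjusted p under 0.05 for a gain and 75 for a loss. JUND, an AP-1 subunit, GATA3, a factor of trophectoderm and T cells, SOX12 and ZNF12 led the gains. JUND summed to 474 and 907 CPM at day 0 and to between 655 and 1669 CPM at day 25. GATA3 summed to 354 and 486 CPM at day 0 and to between 497 and 695 CPM at day 25, above day 0 in all 6 libraries. Against day 0 replicate 2 alone, 1266 guides were called higher (percent called 11.2) and 0 lower, yet 0 genes were called, and 75 gains and 76 losses had an unadjusted p under 0.05. A single day 0 library has no spread of its own and is assumed in these fits to vary like the cultures.

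On the loss side, FOXK1 led. It encodes a forkhead factor that regulates glycolysis and represses autophagy genes. Its guides summed to 577 and 901 CPM at day 0, to 457, 331 and 133 CPM in TNNT2- and to 636, 502 and 65.7 CPM in TNNT2+. Only TNNT2+ replicate 1 overlapped day 0, and the lowest values were in the 2 thin libraries of culture 3. The median guide log2 fold change in the cultures was -1.94 ± 1.82, 1 of 7 guides was above 0, and the adjusted p was 0.196 in the limma rank aggregation. Against day 0 replicate 1 alone the median was -0.94 and with the 4 thin libraries left out -0.27. FOXK1_7 had 38.9 and 9.30 CPM at day 0 and was at 0.0727 CPM or below in 5 of 6 day 25 libraries, with 47.7 CPM in TNNT2- replicate 2.

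ZNF22, a zinc finger protein, summed to 580 and 1019 CPM at day 0 and to between 175 and 476 CPM at day 25, below day 0 in all 6 libraries. ARID3A, which binds AT-rich DNA, was also below in all 6, at 698 and 930 CPM at day 0 and 634 CPM or less at day 25. In TNNT2+ replicate 3 all 7 ARID3A guides were under 50 reads and their sum was 1.43 CPM. DMRT3 (0.898 CPM) and MEF2C (1.18 CPM) were at the same level in that library, which had 8 genes with no guide of 50 or more reads. These 3 genes were at 458 CPM or more in both fractions of culture 1.

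Among the factors of cardiac differentiation no gene was called in the cultures or in either fraction. Of 26 cardiac factors, 10 had a median above that of all guides in the cultures, against 808 of all 1621 genes. In TNNT2- the count was 14, against 806 of all genes, and in TNNT2+ it was 8, against 813. In the cultures 1 cardiac factor had an unadjusted p under 0.05 for a gain and 0 for a loss, against 73 and 83 of all 1621 genes. The median over the guides of the list was 0.27 in the cultures, against 0.41 for all guides. It was 0.55 against 0.41 with day 0 replicate 1 alone, and -0.45 against -0.04 with day 0 replicate 2 alone. NKX2-5, the homeobox factor of cardiac progenitors, summed to 765 and 669 CPM at day 0 and to between 392 and 703 CPM at day 25, with a median of -0.07 ± 2.05. TBX5, a T-box factor of the heart fields, summed to 735 and 615 CPM at day 0 and to between 182 and 899 CPM at day 25, with a median of -0.52 ± 2.73. Both overlapped day 0. GATA4 summed to 393 and 618 CPM at day 0, to 527, 795 and 683 CPM in TNNT2- and to 361, 302 and 437 CPM in TNNT2+. Its TNNT2- value exceeded its TNNT2+ value in each culture, while both fractions overlapped day 0. The share of all genes with that order in each culture is not given here, so the order alone does not mark GATA4 as shifted. GATA4_4 and GATA4_6 were the 2 guides of this gene at least 2-fold above day 0 in all TNNT2- libraries, for example at 134, 287 and 151 CPM for GATA4_4 against 15.6 and 0.355 CPM. HAND1, ISL1 and MEF2C had medians of 0.09, 0.26 and 0.41 in the cultures, and each overlapped day 0.

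The mesendoderm and cardiac mesoderm inducers had 7 of 15 members above the all-guide median (808 of 1621 over all genes), and their guides had a median of 0.40. At an unadjusted p under 0.05 there was 1 gain and there were 3 losses, against 73 and 83 of 1621 over all genes. The 3 losses, which did not pass the adjusted test, were MIXL1, MESP2 and SP5, named after their values were seen. Their medians of 1.16, 2.29 and 1.65 lay above that of all guides, since a few low guides set the rank p. T, the brachyury gene, had a median of 3.59 ± 2.30 with 6 of 7 guides above 0 and an adjusted p of 0.973. It summed to 794 and 267 CPM at day 0 and to between 601 and 1585 CPM at day 25, so that its gain was seen against day 0 replicate 2 (median 6.66) and hardly against replicate 1 (0.46). EOMES summed to 596 and 520 CPM at day 0, to 409, 248 and 211 CPM in TNNT2- and to 287, 318 and 705 CPM in TNNT2+, with a median of -0.32 ± 2.21. Only TNNT2+ replicate 3 was above day 0, and the other 5 libraries were below it. MESP1 overlapped day 0 and had a median of -0.19 ± 2.69. Of the 9 WNT, NODAL and BMP effectors, 5 were above the all-guide median and 0 had an unadjusted p under 0.05 in either direction.

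Of 19 pluripotency factors measured, 12 were above the all-guide median in the cultures, against 808 of 1621 over all genes. At an unadjusted p under 0.05 there were 0 gains and 1 loss, against 73 and 83 of 1621 over all genes. POU5F1, the core pluripotency factor OCT4, summed to 770 and 732 CPM at day 0, to 816, 955 and 720 CPM in TNNT2- and to 883, 828 and 1452 CPM in TNNT2+. All 3 cultures were above day 0 in their means (850, 892 and 1086 CPM), and TNNT2- replicate 3 alone was below. NANOG had a median of 0.59 ± 1.86 and SOX2 of 1.34 ± 1.50, both with overlap. At day 0 the POU5F1 guides were above the 616 CPM of an even pool in both libraries, and the SOX2 guides were at 671 and 254 CPM.

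The growth-essential factors, a list of broadly required regulators such as MYC, YY1 and NRF1, showed no loss that passed the test. All 20 were measured, and 8 were above the all-guide median in the cultures, against 808 of 1621 over all genes. At an unadjusted p under 0.05 there were 0 gains and 2 losses, against 73 and 83 of 1621 over all genes. Their guides had a median of 0.27 in the cultures against 0.41 for all guides and 0.26 for control guides. In TNNT2- the list's median was -0.36 against -0.01 for all guides and -0.14 for controls. There 1 gene had an unadjusted p under 0.05 for a gain and 4 for a loss, against 84 and 84 of 1621 over all genes. ZNF143, an activator of many housekeeping genes, was among the 4 leading losses in TNNT2-, with 523 and 892 CPM at day 0, 613, 273 and 250.5 CPM in TNNT2- and an adjusted p of 0.75. ATF4, the effector of the integrated stress response, was among those of TNNT2+, with 579 and 1386 CPM at day 0, 841, 456 and 446 CPM in TNNT2+ and an adjusted p of 0.607. Both overlapped day 0 in their fraction.

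The FOXO family held the only called gene among the lists apart from ZNF10. FOXO1 was the only 1 of its 4 members with an unadjusted p under 0.05 in the cultures, and FOXO6 summed to 549 and 428 CPM at day 0 and to between 431 and 893 CPM at day 25, with overlap.

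The other lists are given as counts beside the 808 of 1621 genes (49.8%) above the all-guide median in the cultures. Over all 1621 genes, 73 had an unadjusted p under 0.05 for a gain and 83 for a loss. Of 39 HOX genes 26 (66.7%) were above it, 2 had an unadjusted p under 0.05 for a gain and 1 for a loss. Of 12 endoderm factors 5 were above it, of 13 endothelial and blood factors 8, of 5 epicardial factors 0, of 14 neural and skeletal muscle factors 8, and of 12 hypoxia and metabolic factors 5. Among 491 ZNF genes, 255 were above it, 20 had an unadjusted p under 0.05 for a gain and 29 for a loss. None of these lists held a called gene in the cultures.

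**Figure D5:**
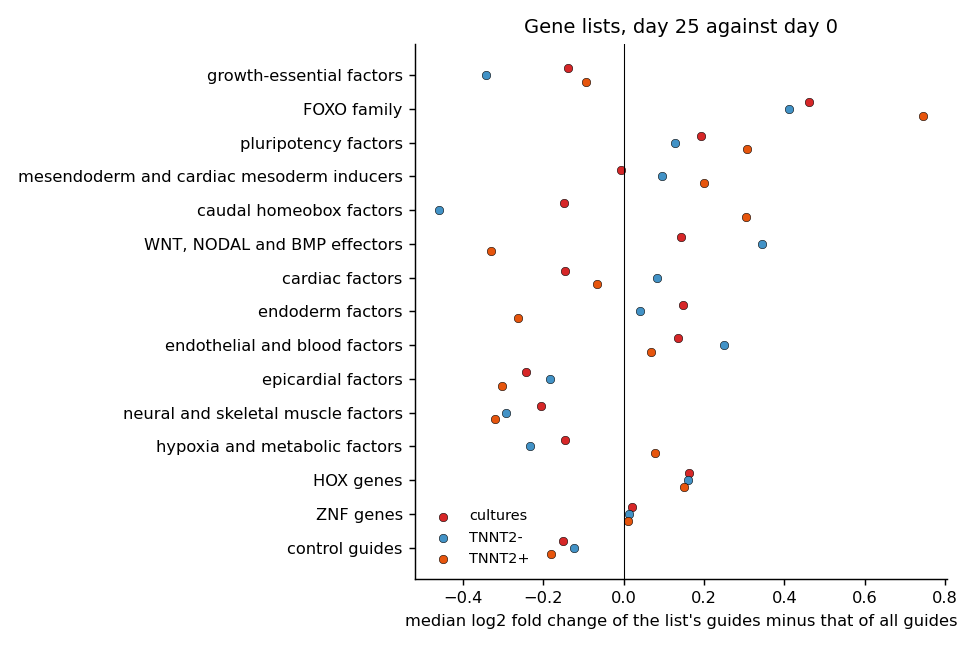
Median log2 fold change over the guides of each gene list minus that over all guides, day 25 over day 0, for cultures (red), TNNT2- (blue) and TNNT2+ (orange), with control guides at the bottom. The control guides lie below 0 in all 3 comparisons and the growth-essential factors lie below 0 in all 3, farthest in TNNT2-, while lists of few genes, such as the FOXO and caudal homeobox families, scatter most.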

How the data were processed

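Guide cassettes amplified from genomic DNA were sequenced, and the deposited 3D table holds a normalised signal per guide and library. MAGeCK and hg38 are named per the submitters' processing notes, with version and normalisation not given in the sources used here. Within each library the deposited signal was a whole number of reads times 1 factor (100% of values whole within 0.001), so reads were recovered and CPM computed from them. Culture CPM is the mean of both fractions' CPM. Guide fits (limma 3.58.1, R 4.3.3) took log2(signal + 10) for guides with a mean of at least 10. Guides with a 1-sided p under 0.25 entered the robust rank aggregation, whose null was computed exactly. This is not the MAGeCK program. The count test on recovered reads (edgeR 4.0.16) called 0 genes and 0 guides in the cultures, and DESeq2 1.42.0 was also run. The steps were run on simulated data, where recovery of known changes was required only at a spread below that observed. How many changes would be recovered in data as noisy as these is not given. Symbols of 1612 of 1633 targets matched GRCh38.p14. The 2D table was not used here. Named genes were the 12 leading per direction in the cultures, the 4 leading per direction in each other comparison, called genes, the 2 leading members of each list and a fixed set of pluripotency and cardiac factors, of which a selection is given. Members, lists and tests were chosen with earlier results of these data known. Day 0 and culture samples share only a number (see the block fit under the alternatives). Results for some targets are not reported here.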

Additional observations from a re-analysis of the deposited data

Results flagged for a closer look

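FOXO1 differed between the fractions of the 3D cultures. Its guides were higher in TNNT2- than in TNNT2+ by a median of 0.86 on the log2 scale, and 5 of 7 guides were higher. The difference itself was tested with limma on TNNT2- against TNNT2+ followed by rank aggregation, with an adjusted p of 0.00634. That fit did not pair the fractions by culture. In summed CPM the TNNT2- fraction was higher in 3 of 3 cultures (2132 against 975, 3702 against 1418 and 1620 against 945). How many of all genes share this order is not given here. The part of the sparse TNNT2+ replicate 3 in this difference was not tested.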

How the results depend on the processing

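With 2 day 0 libraries, of which 1 is thin, and 3 cultures, of which culture 3 is thin in both fractions, the calls depended on the setting: FOXO1 passed in 12 of 19 alternative settings in TNNT2- and ZNF10 in 10 of 19 in TNNT2+. In the cultures, where no gene was called, pseudocount 100 called 2 genes (FOXO1 and CDX2, adjusted p 0.0403 each). FOXO1 was the 1 gene called with control guide scaling (adjusted p 0.0111), library total scaling (0.00129), array weights (0.00512) and the replicate block (0.00129), and NR6A1 was the 1 gene called with limma on summed guides and library total scaling (0.0216), an alternative chosen after seeing the data. Over all settings the adjusted p of FOXO1 ranged from 0.000457 to 0.937. Leaving out 1 sample at a time gave 0 to 1 genes (FOXO1 without culture 3). For guides, 1 was called, against 0 with pseudocount 100, 0 in edgeR and 17 in DESeq2, and between 0 and 1266 with 1 sample left out, the highest without day 0 replicate 1. In TNNT2-, FOXO1 was the 1 gene called. There were 2 with control guide scaling and with library total scaling (FOXO1 and ARHGAP35) and 2 on summed guides with library total scaling (FOXO1 and NR6A1), 0 in edgeR, DESeq2, gene means and summed guides, and 0 to 2 with 1 sample left out. In TNNT2+, ZNF10 was the 1 gene called, and 0 were called in edgeR, DESeq2, gene means, summed guides with either scaling, array weights and the replicate block, and 0 to 1 with 1 sample left out (0 without day 0 replicate 2 or culture 3). The Gini difference ranged from -0.177 to 0.0921 with 1 sample left out. The cause of these moves was not tested. The replicate block rests on 2 shared numbers whose residual correlations were 0.04 and -0.02, so it marks no known pairing. Read totals were alike, so total depth does not separate the thin libraries, and a change of a guide that is sparse in 1 of them has only a few reads behind it.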
